A study of Rattus norvegicus with 8 samples.

Results

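The Slc25 genes encode the mitochondrial carriers, a family of membrane proteins that move metabolites, nucleotides, vitamins and ions across the inner mitochondrial membrane. The members described here were all gene spots whose gene name in the scanner files starts with Slc25a. The array held 26243 gene entries, in which 7143 probes without a gene name stood under their accession or probe name and counted as genes. The members comprised 41 of these entries, with 56 of the 30367 gene probes and 92 spots per array. Of these, 27 probes for 24 genes were kept for testing, because at least 1 of the 4 RNA groups (treated and control at each time) showed them well above background on 3 or more of its 4 arrays. The 24 genes were therefore not all members: 17 genes were too dim, and they are accounted for below.

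The study hybridised RNA of castrated adult male Wistar rats on Agilent 2-colour arrays, under a title that names muscle atrophy. The treated RNA came from castrated rats given testosterone propionate subcutaneously as a single dose of 4 mg/kg in 1 mL/kg of corn oil, 24 h or 8 h earlier, and the control RNA on each array came from castrated rats with no testosterone. Animals were 120 ± 12 days old, per the labels. Each time had 4 arrays that the labels call biological replicates, in dye-swapped orientations. Treated RNA was labelled with Cy5 on the first 2 replicates of 24 h and the last 2 of 8 h, and with Cy3 on the remaining arrays. Castration was common to all RNA, so the ratios measure a testosterone dose on a castrated background and hold no intact animal. The sources used here do not say whether RNA was pooled, whether controls received oil or whether both times share control RNA, and any RNA extract used on more than 1 array would make the p-values too small. Each time occupied its own slide, so the effects of slide and time cannot be told apart.

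The muscle is not named in the labels. Of 15 skeletal muscle fibre markers on the array, 14 were kept, among them Ckm, Acta1 and Tnnt3, with Myh2 too dim. Between 9954 and 13628 probes were well above background in each channel. The spread of log2 ratios over all genes was widest on replicate 1 of 8 h (SD 0.444), against SDs between 0.18 and 0.306 on the other 7 arrays. Replicate 2 of 8 h correlated with replicates 3 and 4 of 8 h at -0.126 and -0.035 across genes, and with replicate 1 at 0.282. Where leaving out an array changed a call, the value without it is given as well.

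Carriers share a fold of repeated membrane-spanning segments and mostly work as exchangers. In muscle they supply the matrix with ADP and phosphate, export ATP, and bring in acylcarnitines, amino acids, cofactors and iron. Testosterone propionate is an androgen ester, and castration removes the main source of circulating androgen. In bulk RNA, fewer cells of a type and less RNA per cell cannot be told apart, and this holds for every ratio below.

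The genes past the test were Slc25a28 and Slc25a24, and each had a second probe, so the last 30 bases of their 60-base probes are shown as the array design gives them, 5′ to 3′, with runs of 5 or more A in capitals. The Slc25a28 pair shows how differently composed the ends of probes only 311 bases apart were.
Slc25a28, brighter probe: accccctggttcctaattAAAAAgAAAAAA
Slc25a28, other probe: cggcaagaagaatggagggcaggcaagtga
Slc25a24, brighter probe: cttattctgatattgctacacagttactgc
Slc25a24, other probe: catgaaggctttagagccttttacaaaggc
All lie on the plus strand of the rn4 rat genome build. The Slc25a28 probes are at chr1:247171165-247171224 (brighter) and chr1:247170854-247170913. The Slc25a24 probes are at chr2:204760679-204760738 (brighter) and chr2:204749861-204749920. Their place in exons or untranslated regions was not analysed here. A run of 5 or more A occurred in 8 of the 56 Slc25 probes (14.3%), close to the 10.1% of all gene probes. The brighter Slc25a24 probe has a run of 6 A in the bases not shown. The other probes of Slc25a28 and Slc25a24 have no such run.

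Ratios are log2 of treated over control after background correction and loess normalization, and levels are log2 intensities of a single channel on the same scale. Differences were tested in limma over 10872 genes with Benjamini-Hochberg adjusted p-values, taking 0.05 as the threshold. At 24 h, 2 of the 24 measured Slc25 genes passed (8.33%), 1 higher and 1 lower, against a background of 7.05% of all genes. By direction the background was 4.14% higher and 2.91% lower. At an unadjusted p under 0.05, 5 members passed (20.8%), against 22.1% of all genes. The share of carriers that changed was thus near that of the array as a whole. At 8 h none of the 24 passed, where 0.0276% of all genes did (0.0184% higher and 0.0092% lower), and 5 passed unadjusted (20.8%, against 17.1% of all genes). Between the times, 24 h minus 8 h, again none passed (background 1.3%, 0.727% higher and 0.57% lower), with 6 at an unadjusted p under 0.05 (25%, against 16.2%).

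The median ratio of the 24 genes was -0.055 at 24 h, where the median of all genes was 1.26e-05, with 9 carriers above 0 and 15 below. That median turned to 0.078 when the arrays were only centred on their median, a scaling under which the all-gene median was 0.155. At 8 h the median of the carriers was 0.093 and that of all genes -0.011, with 17 above 0 and 7 below. The 8 h median was 0.0051 without replicate 4 of 8 h. The sizes of the ratios, without sign, had a median of 0.154 over the carriers and 0.0962 over all genes at 24 h, and of 0.148 and 0.0967 at 8 h.

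**Figure D1:**
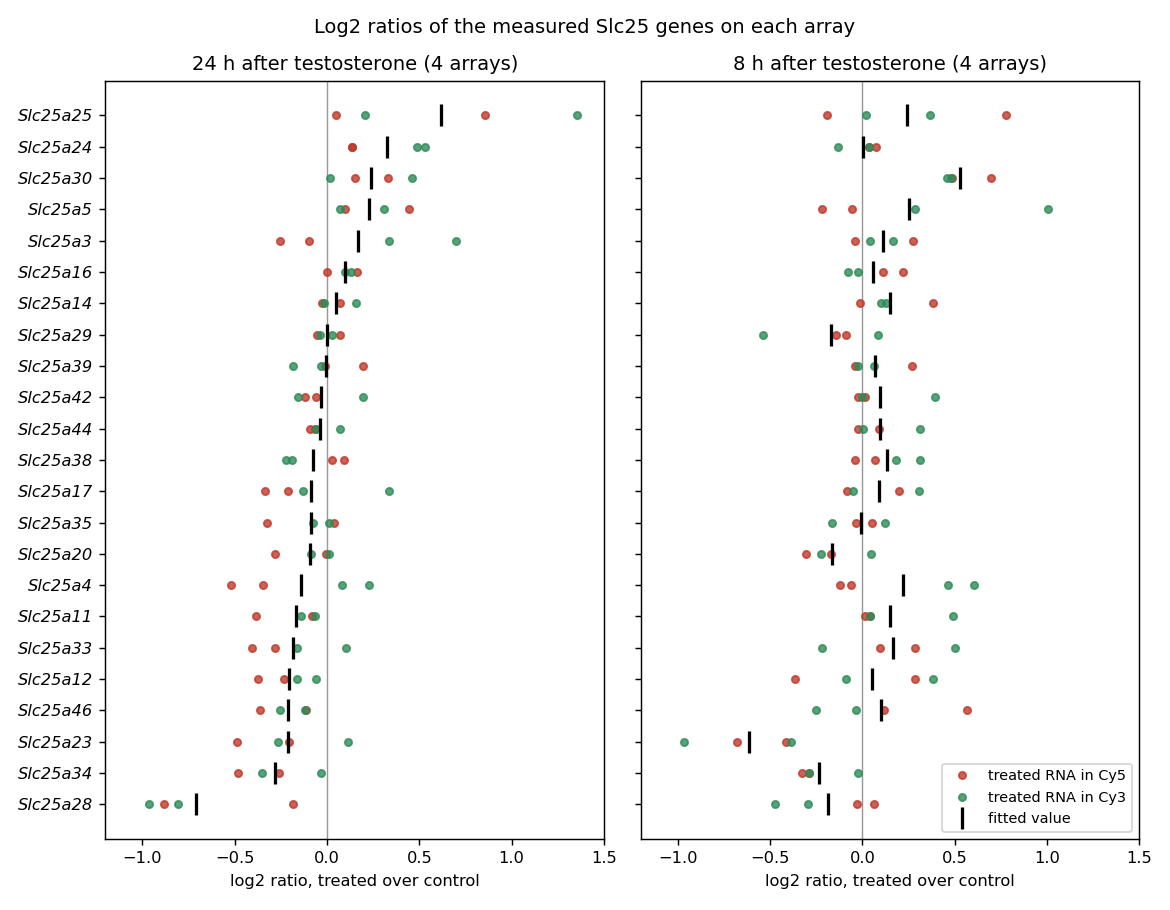
Log2 ratios of treated over control for 23 of the 24 measured Slc25 genes, at 24 h (left) and 8 h (right), ordered by the fitted value at 24 h; each point is 1 array, coloured by the dye of the treated RNA, and bars are fitted values. Slc25a28 lies below 0 on all 4 arrays of 24 h, Slc25a24 above 0 on all 4, and Slc25a30 above 0 on all 8 arrays.

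At 24 h, 9 carriers had the same sign on all 4 arrays (37.5%, background 29.1%), 4 of them above 0 (background 15.3%) and 5 below (background 13.8%). At 8 h, 5 did so (20.8%, background 21.4%), 2 above 0 (background 9.42%) and 3 below (background 12%). Treated and control levels did not overlap for 5 genes at 24 h (Slc25a24, Slc25a25, Slc25a28, Slc25a30 and Slc25a46), or 20.8% of the carriers, against 11.3% of all genes. At 8 h they did not overlap for 3 genes, among them Slc25a23 and Slc25a34, or 12.5% of the carriers, against 5.68% of all genes. Both shares of carriers without overlap lay above the background but rest on only 5 and 3 of 24 genes. Overlap compares levels across arrays and leaves out the pairing of channels within an array and the dye. Most of these genes did not pass the test.

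Among the iron carriers, Slc25a28 encodes mitoferrin-2, which imports iron into mitochondria for haem and iron-sulphur cluster synthesis. On its brighter probe the treated levels at 24 h were 8.67, 9.38, 8.71 and 8.99 in replicates 1 to 4, against control levels of 9.55, 9.57, 9.68 and 9.80. All treated levels lay below all control levels, and replicate 2 stood closest to its control. The 4 array ratios were -0.88, -0.18, -0.96 and -0.81. Slc25a28 fell at 24 h, with a log2 ratio of -0.71 (SE 0.103, 95% interval -0.94 to -0.48, limma adjusted p = 0.00392). Treated RNA thus gave a signal 1.63-fold lower than control RNA. The direction was the same in both dye orientations, at -0.53 with treated RNA in Cy5 and -0.89 with it in Cy3.

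At 8 h the treated levels of Slc25a28 were 9.29, 9.47, 9.61 and 9.63, against control levels of 9.77, 9.77, 9.64 and 9.57. These overlapped, and replicate 4 was above 0. The 8 h ratio was -0.18 (limma adjusted p = 0.361). The 24 h ratio minus the 8 h ratio was -0.52 (limma adjusted p = 0.109), so a difference between the times did not pass. Without any 1 array of 24 h or 8 h the 24 h ratio of Slc25a28 lay between -0.84 and -0.56 and passed each time. Under median centring it was -0.34 and no longer passed (limma adjusted p = 0.259).

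The second kept probe of Slc25a28 gave another value. Its 24 h treated levels were 6.33, 6.53, 6.39 and 6.47, against control levels of 6.31, 6.34, 6.59 and 6.96. These overlapped, with the treated channel higher on replicates 1 and 2 and lower on replicates 3 and 4, which is also the split by dye. Its ratio was -0.12 at 24 h (limma adjusted p = 0.519) and 0.063 at 8 h. Averaging both probes gave -0.41 at 24 h (limma adjusted p = 0.0156), so the call held with a smaller size. The value of -0.71 comes from 1 of the 2 kept probes of Slc25a28. The other mitoferrin, Slc25a37, best known from red cell precursors, was well above background in none of 16 channels.

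**Figure D2:**
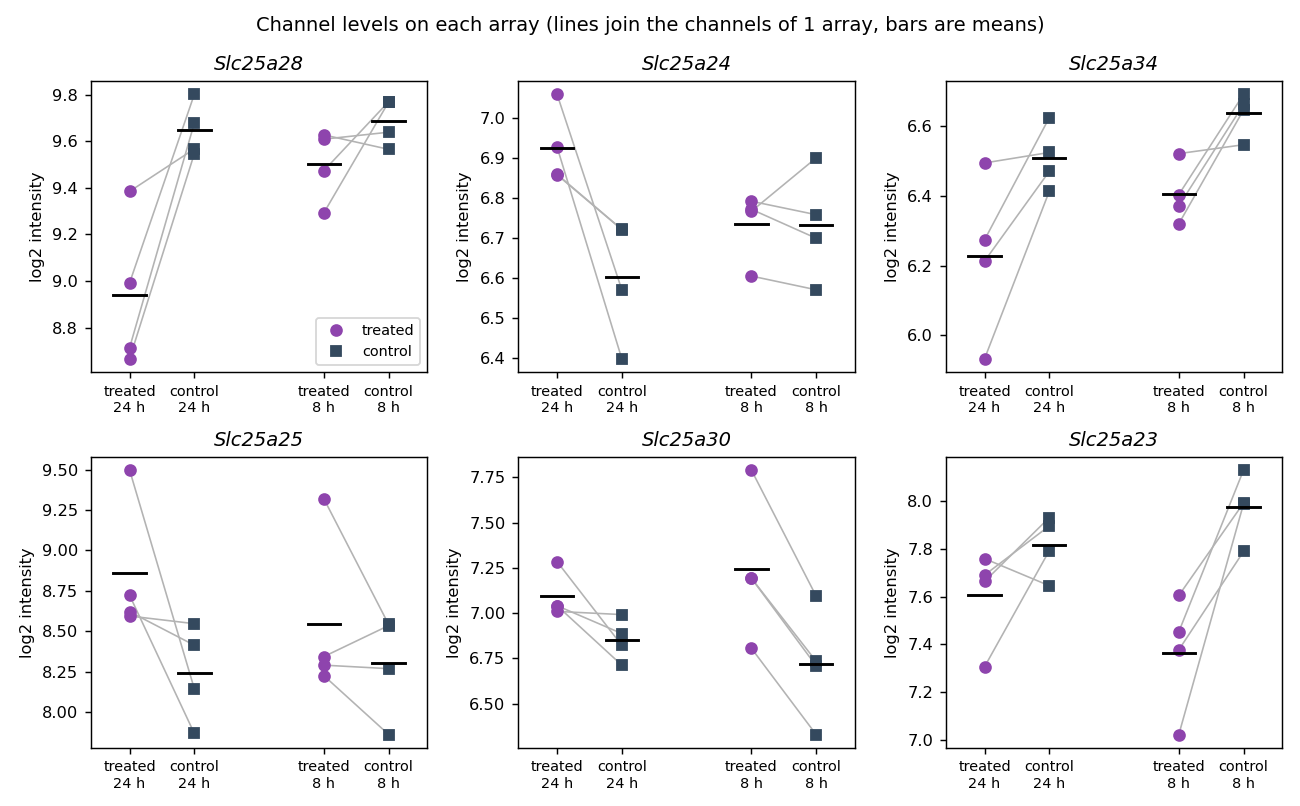
Log2 intensity of the treated channel (circles) and the control channel (squares) on each array at 24 h and 8 h for 6 Slc25 genes; lines join the channels of 1 array and bars are means of 4. For Slc25a28 the 24 h treated levels of 8.67 to 9.38 lie below the control levels of 9.55 to 9.80, and for Slc25a24 the treated levels of 6.86 to 7.06 lie above the control levels of 6.40 to 6.72.

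The exchangers of ATP-Mg and phosphate adjust the adenine nucleotide pool of the matrix, and most of them carry a calcium-binding part. Of 4 on the array (Slc25a23, Slc25a24, Slc25a25 and Slc25a41), 3 were measured, and Slc25a41 was well above background in no channel. The treated levels of Slc25a24 at 24 h were 6.86, 6.86, 7.06 and 6.93, against control levels of 6.72, 6.72, 6.57 and 6.40. All treated levels lay above all control levels. Slc25a24 rose at 24 h with a log2 ratio of 0.32 (SE 0.082, 95% interval 0.14 to 0.51, limma adjusted p = 0.0436), a level 1.25-fold higher in treated RNA.

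That call sat close to the threshold. The ratio of Slc25a24 was 0.14 on both arrays with treated RNA in Cy5, and 0.49 and 0.53 on those with it in Cy3, although its dye coefficient did not pass (limma adjusted p = 0.672). Its limma adjusted p was 0.124, 0.0881, 0.175 and 0.183 without replicate 1, 2, 3 or 4 of 24 h, with ratios between 0.27 and 0.37, and 0.0651 and 0.0646 without replicate 3 or 4 of 8 h. It passed in 11 of 21 alternatives, with ratios above 0 in all of them. These alternatives overlap, so the count is no measure of independent support. The processed signals and the authors' log ratios are nearly the same values, and the filter and probe choices kept the same ratio. At 8 h the ratio was 0.0017, with treated levels of 6.79, 6.77, 6.77 and 6.61, against control levels of 6.76, 6.90, 6.70 and 6.57. Those groups overlapped. The 24 h minus 8 h difference was 0.32 (limma adjusted p = 0.21) and did not pass. The second probe of Slc25a24, 10818 bases away by its start, was well above background in no channel, so it gave no independent reading of the gene.

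Slc25a25 had the highest fitted ratio of the carriers at 24 h and did not pass. Its treated levels were 8.72, 8.59, 9.497 and 8.62, against control levels of 7.87, 8.55, 8.15 and 8.41. The groups did not overlap, yet the array ratios ranged from 0.047 in replicate 2 to 1.35 in replicate 3. The mean was 0.62 (SE 0.21, limma adjusted p = 0.115), and between 0.34 and 0.82 with an array left out. This probe was printed 10 times on each array, and the SD between its spots within an array was 0.055 to 0.206 over the 8 arrays, well under the SD of 0.603 between the 4 arrays of 24 h. At 8 h its ratios were 0.022, 0.36, -0.19 and 0.78, with a mean of 0.24 (limma adjusted p = 0.554).

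Slc25a23 had its lowest p at 8 h and passed at neither time. Its treated levels at 8 h were 7.02, 7.60, 7.45 and 7.38, against control levels of 7.99, 7.99, 8.13 and 7.79. All treated levels lay below all control levels. The ratio was -0.61 (SE 0.117, 95% interval -0.87 to -0.35, unadjusted p = 0.000395, limma adjusted p = 0.179). Without replicate 2 of 8 h it was -0.69 and passed (limma adjusted p = 0.0171), along with Slc25a30 and Slc25a33. The count of all genes called at 8 h was then 1224 in place of 3. Without replicate 1, 3 or 4 of 8 h no Slc25 gene passed at 8 h. At 24 h the ratio of Slc25a23 was -0.21 (limma adjusted p = 0.332), with treated levels of 7.31, 7.69, 7.76 and 7.66, against control levels of 7.79, 7.90, 7.65 and 7.93, which overlapped. Its 24 h minus 8 h difference was 0.40 (limma adjusted p = 0.267).

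Slc25a14, Slc25a27 and Slc25a30 are relatives of the uncoupling proteins, and Slc25a30 is called the kidney mitochondrial carrier. Slc25a30 had treated levels at 8 h of 7.19, 6.81, 7.19 and 7.79, against control levels of 6.73, 6.33, 6.71 and 7.09. The groups overlapped as levels, but within each array the treated channel was the higher, by 0.46, 0.48, 0.48 and 0.70. The 8 h ratio was 0.53 (SE 0.085, 95% interval 0.34 to 0.72, unadjusted p = 0.000102), the lowest p of the carriers at that time. After adjustment it did not pass (limma adjusted p = 0.116). It passed without replicate 2 of 8 h (0.54, limma adjusted p = 0.0158) and with no offset in the background correction (0.97, limma adjusted p = 0.0428).

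At 24 h Slc25a30 had treated levels of 7.04, 7.04, 7.28 and 7.01, against control levels of 6.71, 6.89, 6.82 and 6.99. The treated levels all lay above the control levels, by as little as 0.017 on the array of replicate 4. The ratio was 0.24 (limma adjusted p = 0.126). Slc25a30 was thus above 0 on all 8 arrays and past the threshold at neither time. Slc25a14 had ratios of 0.046 at 24 h and 0.15 at 8 h. At 8 h its control channel was well above background on none of 4 arrays and its treated channel on 4 of 4. The mean treated level was 6.39 and the mean control level 6.24. Their ratio, 1.11-fold, did not pass (limma adjusted p = 0.341), and replicate 3 was at -0.011. The control signals of the probe lay above the lowest detected signal of each array, so the 1.11-fold is the fitted value and no lower bound. The probe was kept through its treated channels alone, so the difference in detection is no separate evidence of a rise. Slc25a27 was well above background in no channel.

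Of the adenine nucleotide carriers, Slc25a4 encodes the main ADP/ATP carrier of muscle and heart, and Slc25a5 the form typical of dividing cells. The treated levels of Slc25a4 at 24 h were 10.98, 10.64, 10.68 and 11.03, against control levels of 11.33, 11.16, 10.60 and 10.81. These overlapped, and the ratio was below 0 in replicates 1 and 2 and above 0 in replicates 3 and 4. That split followed the dye: at 24 h the ratio averaged -0.43 with treated RNA in Cy5 and 0.15 with it in Cy3. At 8 h it averaged -0.094 with treated RNA in Cy5 and 0.53 with it in Cy3. The dye coefficient of Slc25a4 was -0.30 (unadjusted p = 8.31e-05, limma adjusted p = 0.0564), and it was 1 of 2 carriers, with Slc25a28, whose dye coefficient had an unadjusted p under 0.05. Among all genes 13.1% did so.

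With the dye in the model, Slc25a4 had a ratio of -0.14 at 24 h (limma adjusted p = 0.257) and 0.22 at 8 h (limma adjusted p = 0.264). The 24 h minus 8 h difference of -0.36 had the lowest adjusted p of the carriers for that comparison, 0.0944 in limma, and did not pass. Under median centring the 24 h ratio of Slc25a4 turned to 0.27. Slc25a5 had ratios of 0.23 at 24 h, above 0 on all 4 arrays, and 0.25 at 8 h, where they ranged from -0.22 in replicate 4 to 1.01 in replicate 1. Neither passed. Its second kept probe gave 0.10 at 24 h (limma adjusted p = 0.593) and 0.20 at 8 h (limma adjusted p = 0.315) with every kept probe tested. On that probe the treated channel was well above background on 3 of 4 arrays at 24 h and 2 of 4 at 8 h, and the control channel on none, so both values lie near the background.

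Slc25a3 encodes the phosphate carrier, which feeds ATP synthase and also carries copper. Its 24 h ratios were -0.099, -0.25, 0.33 and 0.70, so the sign split by dye at that time, as for Slc25a4. At 8 h, unlike Slc25a4, it averaged 0.12 with treated RNA in Cy5 and 0.10 with it in Cy3. Its dye coefficient did not pass (limma adjusted p = 0.413). The mean was 0.17 at 24 h and 0.11 at 8 h, and neither passed.

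**Figure D3:**
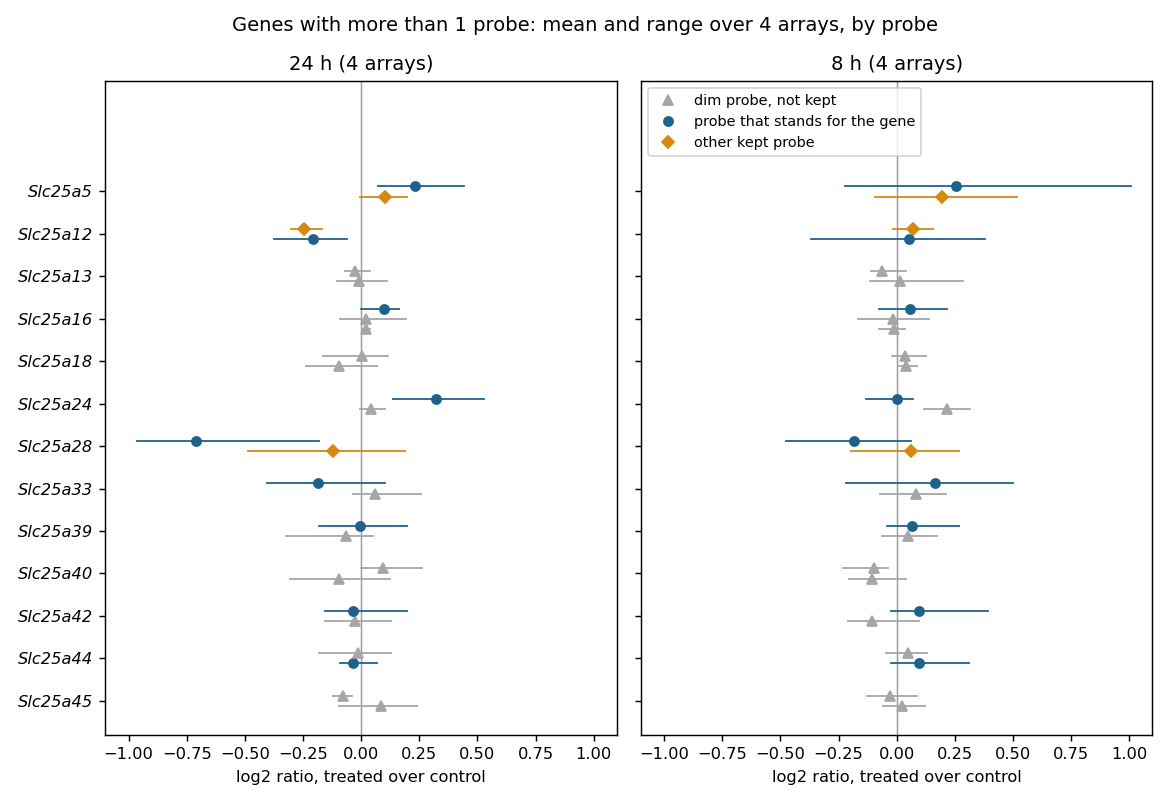
Mean log2 ratio of treated over control (symbols) and range over 4 arrays (lines) for each probe of 13 Slc25 genes with more than 1 probe, at 24 h (left) and 8 h (right). The probes of Slc25a28 differ most at 24 h, with means of -0.71 and -0.12, while those of Slc25a12 give -0.21 and -0.25.

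Of 6 carriers of citrate, dicarboxylates and oxoacids on the array, 3 were measured. Slc25a34, a carrier of this branch, had treated levels at 24 h of 5.93, 6.21, 6.49 and 6.27, against control levels of 6.41, 6.47, 6.52 and 6.62. Within each array the treated channel was the lower, but the groups overlapped, and only 2 of the 4 treated channels were well above background. The 24 h ratio was -0.28 (SE 0.079, limma adjusted p = 0.0649). At 8 h the treated levels were 6.40, 6.52, 6.32 and 6.37, against control levels of 6.69, 6.55, 6.65 and 6.66, with no overlap, and the ratio was -0.23 (limma adjusted p = 0.265). Slc25a34 was below 0 on all 8 arrays. It did not pass as tested, and it passed at 24 h in 7 of 20 alternatives, which included leaving out replicate 1 (limma adjusted p = 0.0417) or 2 of 8 h (limma adjusted p = 0.0482). Another was the use of the deposited processed signals, in which the background and dye corrections both differ, and which gave -1.06 (limma adjusted p = 0.016). The authors' log ratios, counted as a further alternative, are nearly the same values.

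Slc25a11 encodes the oxoglutarate/malate carrier of the malate-aspartate shuttle. Its ratios were -0.17 at 24 h, below 0 on all 4 arrays, and 0.15 at 8 h, above 0 on all 4 arrays, neither passing. The 24 h minus 8 h difference was -0.31 (unadjusted p = 0.0284, limma adjusted p = 0.245). Slc25a35 had -0.088 at 24 h and -0.0059 at 8 h. The citrate carrier Slc25a1, the dicarboxylate carrier Slc25a10 and the oxodicarboxylate carrier Slc25a21 were well above background in no channel.

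Of 4 aspartate and glutamate carriers, only Slc25a12 was measured. Slc25a12 encodes aralar, the calcium-regulated aspartate/glutamate carrier of muscle and brain, which belongs to the same shuttle as Slc25a11. Its brighter probe had 24 h ratios of -0.38, -0.23, -0.061 and -0.16, and its second probe -0.30, -0.22, -0.30 and -0.17. Both probes, whose starts lie 62823 bases apart, were below 0 on all 4 arrays. Their fitted ratios were -0.21 (limma adjusted p = 0.313) and, with every kept probe tested, -0.25 (limma adjusted p = 0.0519), so neither passed. At 8 h they were 0.052 and 0.070. Under median centring the brighter probe turned to 0.19 at 24 h. The relatives Slc25a13 and Slc25a18 were well above background in no channel, and Slc25a22 in 1 of 16.

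Among carriers of other amino acids, Slc25a29, which carries basic amino acids, had ratios of 0.0018 at 24 h and -0.17 at 8 h. Slc25a38, the glycine carrier needed for haem synthesis, had -0.074 at 24 h and 0.13 at 8 h, and was well above background in 8 of 16 channels. Slc25a44, the carrier of branched-chain amino acids, had -0.036 at 24 h and 0.095 at 8 h. None of these passed at either time. The ornithine carriers Slc25a15 and Slc25a2 were well above background in no channel. The brighter probe of Slc25a44 had 10 spots, and its SD between single spots within an array was 0.063 to 0.164. The SD between the 4 arrays of 24 h was 0.072.

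Slc25a20 encodes the carnitine-acylcarnitine carrier, through which long-chain fatty acids reach beta-oxidation. Its ratios were -0.09 at 24 h (limma adjusted p = 0.555) and -0.16 at 8 h (limma adjusted p = 0.304). It was below 0 on 3 of 4 arrays at each time. Slc25a45 and Slc25a47 were well above background in no channel.

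Slc25a33, a pyrimidine nucleotide carrier, had ratios of -0.19 at 24 h and 0.16 at 8 h, and its relative Slc25a36 was well above background in only 2 of 16 channels. Without replicate 2 of 8 h, Slc25a33 passed at 8 h (0.34, limma adjusted p = 0.0314) and between the times (-0.53, limma adjusted p = 0.0332). With all arrays it passed in neither. The treated channel of Slc25a33 was well above background on 2 of 4 arrays at 24 h and 3 of 4 at 8 h. At 8 h the exception was replicate 2. The second probe of Slc25a33, well above background in no channel, was at 0.058 at 24 h and 0.084 at 8 h. Slc25a42, a coenzyme A carrier, had -0.034 at 24 h and 0.095 at 8 h. Slc25a16, also linked to coenzyme A, had 0.096 at 24 h and 0.057 at 8 h. The peroxisomal Slc25a17 had -0.085 at 24 h and 0.092 at 8 h, so the fitted ratios of these 3 genes lay within 0.1 of 0 at both times. Single arrays ran wider, as for Slc25a17 from -0.34 to 0.34 at 24 h. Under median centring Slc25a17 was at 0.22 at 24 h and 0.38 at 8 h, and Slc25a16 at 0.27 at 24 h.

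Slc25a39, needed for mitochondrial glutathione import, had -0.0072 at 24 h and 0.067 at 8 h. It was well above background in only 7 of 16 channels, so both values lie near the background. The S-adenosylmethionine carrier Slc25a26 and the glutathione-linked Slc25a40 were well above background in no channel, and the folate and flavin carrier Slc25a32 in 4 of 16. Slc25a46, an outer membrane relative with a part in mitochondrial shape, had -0.21 at 24 h, below 0 on all 4 arrays, and 0.098 at 8 h. Its treated and control levels at 24 h did not overlap, and it did not pass (limma adjusted p = 0.284).

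Of the 17 Slc25 genes left out of the test, 14 were well above background in no channel of any array, and Slc25a22, Slc25a32 and Slc25a36 in a few. Among the 24 that were measured, 17 were well above background in all 16 channels on the probe that stood for the gene. No Slc25 spot was saturated, and 11 of 736 carried an outlier flag.

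**Figure D4:**
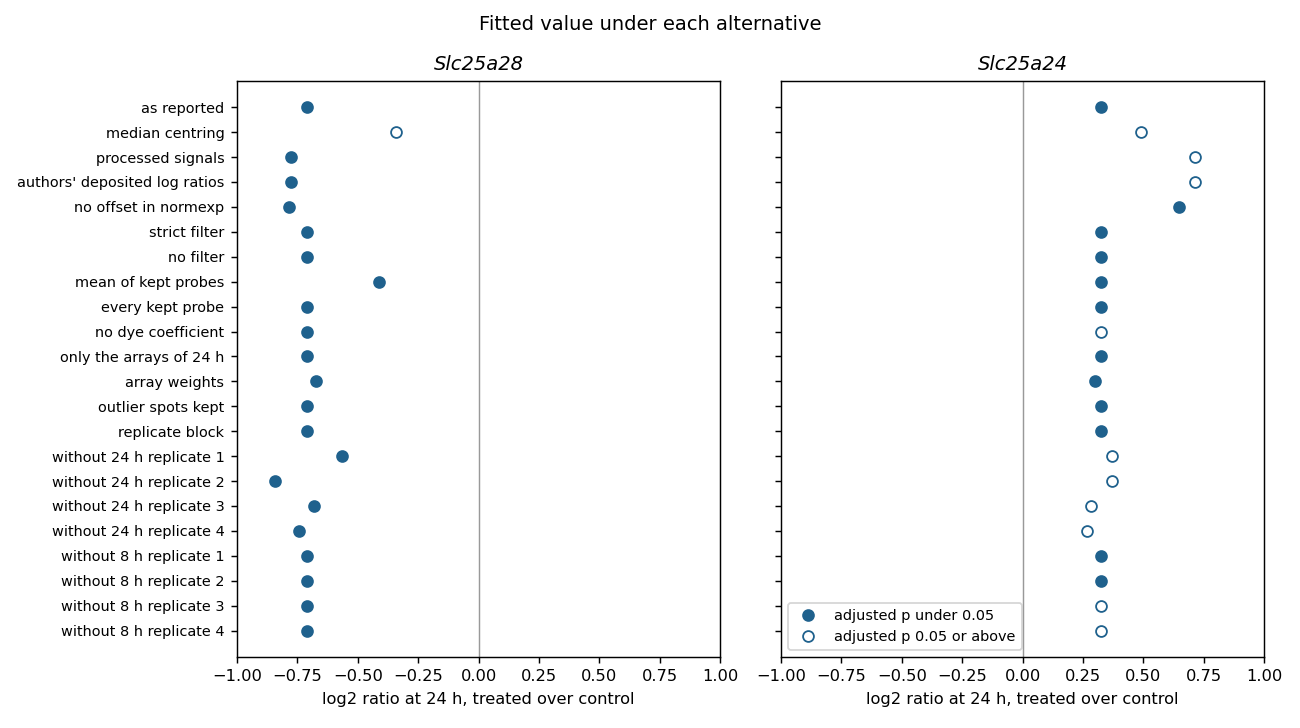
Fitted log2 ratio at 24 h, treated over control, of Slc25a28 (left) and Slc25a24 (right) as reported and under each alternative; filled points have a limma adjusted p under 0.05. Slc25a28 stays between -0.84 and -0.34 and is open only under median centring, while Slc25a24 stays between 0.27 and 0.71 and is filled in 11 of 21 alternatives.

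Genes of the same family under other names were described beside these. Ucp3, the muscle uncoupling protein, fell at 24 h with a ratio of -1.97 (SD 0.185, n = 4, limma adjusted p = 4.12e-05). It also passed between the times (-1.30, limma adjusted p = 0.00836). Ucp2 (0.095) and Mtch1 (0.11) did not pass at 24 h, and Ucp1 and Mtch2 were too dim. Over all genes at 24 h, 4.14% passed as higher and 2.91% as lower. Of 18 other measured genes for transport across the mitochondrial membranes, 2 rose at 24 h and none fell. These were Mpc2, a subunit of the pyruvate carrier (0.44, limma adjusted p = 0.0255), and Tspo, an outer membrane protein (0.36, limma adjusted p = 0.0333). The other pyruvate carrier subunit, Mpc1, was at -0.081, and the carnitine palmitoyltransferase Cpt1b at -0.064. Of 12 measured genes of the machinery that inserts carriers into the inner membrane, none passed at either time, with a median of 0.080 at 24 h and 0.083 at 8 h.

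Markers of other cells moved at 24 h as well, where 4.14% of all genes passed as higher and 2.91% as lower. Of 8 measured fibroblast markers 4 rose, with the summed intensity at 9284 to 15629 in treated channels, against 4904 to 6958 in control channels. Those that rose were Col1a1, Col1a2, Col3a1 and Postn. The other 4, Dcn (-0.0021), Lum (-0.25), Pdgfra (-0.030) and Fn1 (0.15), did not pass. Among 8 macrophage markers 4 rose, namely Cd163, C1qa, C1qc and Lyz2. The 8 markers summed to 4811 to 6537 in treated channels, against 3673 to 4666 in control channels. The other 4, Cd68 (-0.018), C1qb (0.37), Csf1r (0.077) and the defining marker Adgre1 (0.048), did not pass. The muscle fibre markers summed to 184410 to 219530 in treated channels, against 242540 to 279320 in control channels. Of these 14 markers 1 rose (Myh1) and 2 fell (Acta1 and Actn3). Of 4 measured adipocyte markers Fabp4 rose, while Adipoq (0.37), Cfd (0.39) and Retn (0.43) were above 0 and did not pass. Plin1 and Lep were too dim. The endothelial marker Kdr rose as 1 of 4 measured. None of 3 globin genes and none of 5 smooth muscle markers passed. The part of these shifts in the Slc25a28 and Slc25a24 ratios was not tested.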

How the data were processed

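RNA of castrated rats, treated or control, was labelled with a Quick Amp kit after Trizol extraction, per the labels' protocols, and the submitters' processing notes name Agilent Feature Extraction, version 9.5.3.1. The deposited mean signals and local backgrounds are linear, unnormalized intensities, per the file headers. The deposited processed signals are intensities with background and dye already corrected, per the file headers. The deposited LogRatio is log10 of red over green, per the file headers. The authors' deposited value table holds log2 ratios with scale, centring and direction unstated. It matched the log2 ratio of processed signals turned to treated over control within 1.35e-05, and its column medians ran from -0.144 to 0.0896.

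In R 4.3.3, limma 3.58.1 corrected mean signals by normexp (offset 50) and fitted loess within arrays, leaving out control and outlier spots. Spots of a probe were averaged, and the brightest kept probe stood for its gene. Ratios were fitted with both times and a dye coefficient, with eBayes and Benjamini-Hochberg adjustment over 10872 genes. Channel levels were loess and Aquantile normalized. The code was tested on simulated data. The number of arrays, 4 per time, limits the precision.

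All 56 probe names equalled current RefSeq symbols. Probes under other file names that RefSeq places in the family (Mcart1, Mcart1l, LOC691448) fell outside the rule. The values of 1 measured member are not reported here, although it is part of the counts and medians. The members and lists were chosen with earlier results of these data known. Full values were given for genes past the threshold, then those of lowest p at 24 h up to 6 genes, and the 3 of lowest p at 8 h, with the other members named by role. Alternatives covered background correction, scaling, processed signals, filters, probe choice, dye term, array weights, the replicate block and each array left out.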

Additional observations from a re-analysis of the deposited data

Results flagged for a closer look

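In 4 of 46 groups of 4 arrays, 1 array lay far from the others (Dixon's test at 95%), where chance gives about 1 in 20. All 4 were at 8 h. Slc25a11 was at 0.491 on replicate 1, against 0.0116 to 0.0423 on the other arrays. Slc25a42 was at 0.392 on the same array, against -0.0228 to 0.0147. Slc25a34 was at -0.0254 on replicate 2, against -0.327 to -0.288. Slc25a30 was at 0.696 on replicate 4, against 0.459 to 0.484.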

How the results depend on the processing

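The number of Slc25 genes past the threshold at 24 h was 2. It was 0 under median centring, 1 without the dye coefficient, 4 with only the 24 h arrays (Slc25a25 and Slc25a34 added), and 1 to 3 with an array left out (1 without any single array of 24 h or without replicate 3 or 4 of 8 h, and 3 without replicate 1 or 2 of 8 h). At 8 h it was 0, against 1 with no normexp offset and 0 to 3 with an array left out (3 without replicate 2), and between the times it was 0 to 1 with an array left out. The median Slc25 ratio at 24 h was 0.078 under median centring, -0.14 with processed signals or the authors' log ratios and -0.11 with no offset, and ran from -0.055 to -0.020 with an array left out. At 8 h it was 0.20 under median centring and 0.0051 to 0.11 with an array left out.

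Over all genes, the count at 24 h was 766, against 397 under median centring, 1589 with only the 24 h arrays, 1503 with array weights and 190 (without replicate 1 of 24 h) to 1240 (without replicate 1 of 8 h) with an array left out. At 8 h it was 3, against 0 under median centring, 1 with processed signals or the authors' log ratios, 8 with no offset, 1 without the dye coefficient, 0 with only the 8 h arrays (1111 at an unadjusted p under 0.05 in limma) and 0 to 1224 (without replicate 2 of 8 h) with an array left out. Between the times it was 141, against 0 under median centring, 86 with processed signals or the authors' log ratios, 285 with array weights and 28 (without replicate 1 of 24 h) to 590 (without replicate 2 of 8 h) with an array left out. Under median centring 95.5% of the 24 h calls were higher, against 58.7% as reported. The causes were not tested.

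The replicate numbers were not taken to pair the arrays, since nothing in the labels says that equal numbers share an animal or batch. Deviations of same-numbered arrays at 24 h and 8 h correlated at -0.26, 0.17, -0.16 and -0.080. Same-numbered arrays have opposite dyes at the 2 times, so any dye effect lowers these values and they cannot decide on pairing. After the dye term these correlations were 0.28, 0.19, 0.31 and 0.34, and every array but replicate 2 of 24 h correlated best with its own number. A dye term common to both times itself adds a shared part to them, so this is a hint from the data only. With the replicate block, 2 Slc25 genes passed at 24 h, 0 at 8 h and 0 between the times, and all genes gave 834, 8 and 310. Of the 310 between the times, 33.9% were higher, against 56% of the 141 without the block. Of 1467 values of single Slc25 genes under an alternative, 1351 counted as unchanged, 11 lost a call, 13 gained one and 92 moved. For values not called, unchanged meant a shift of less than the SD between arrays. For the called ones, Slc25a28 and Slc25a24 at 24 h, it meant only that the call held, whatever its size. No called value changed sign, while 49 uncalled values did. Dim probes and 4 arrays a time limit what could be detected.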

Other observations

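Mcart1, which RefSeq now calls Slc25a51, a carrier of NAD, had log2 ratios at 24 h of 0.79, 0.17, -0.35 and -0.72 in replicates 1 to 4 and at 8 h of 0.52, 0.59, -0.072 and -0.61. At each time it was above 0 in replicates 1 and 2 and below 0 in replicates 3 and 4, across both dye orientations. Mcart1l (Slc25a53) and LOC691448 (Slc25a54) were too dim to be kept.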
